A study of Mus musculus with 16 samples.

Results

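The Wnt ligands, the Frizzled receptors and 2 families of secreted Wnt inhibitors, Sfrp and Dkk, were followed across 16 primary rhabdoid tumors (RT) of the R26-CreERT2;Smarcb1flox/flox mouse. The genes were taken by their symbols, as every Wnt, Fzd, Sfrp and Dkk gene in the raw count table, which gave 37 of the 24982 genes listed: 19 Wnt, 10 Fzd, 4 Sfrp and 4 Dkk genes. Every one of the 37 was counted in 1 tumor or more, and all were tested. Each tumor came from a different mouse with 2 floxed copies of Smarcb1, the gene lost in rhabdoid tumors, and with a tamoxifen-inducible Cre under the ubiquitous Rosa26 promoter. Tamoxifen was given at embryonic day E6, E7 or E8, and no tissue without tumor was among the samples. The 5 intra-CNS tumors, which lay within the brain, were all induced at E6 and were taken at 30 to 180 days of age. The 6 intracranial extra-CNS tumors lay inside the skull but outside the brain, were induced at E6 (1 tumor), E7 (1) or E8 (4), and were taken at 52 to 170 days. The 5 extracranial tumors, of the back, the jaw (2), the nose and the mouth, were induced at E6 (1) or E8 (4) and were taken at 80 to 210 days. The study classes the tumors inside the brain as Shh and the others as Myc, so that subgroup and site cannot be told apart here. The nose tumor (43990A) was kept as extracranial, as its label has it, although the study's own table lists it as intracranial extra-CNS.

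Wnt proteins are lipid-modified ligands that bind Frizzled receptors together with Lrp5 or Lrp6 and, in the best known branch of the pathway, stabilise beta-catenin, which then acts with Tcf and Lef factors on genes such as Axin2. Other branches, in which Wnt5a and Wnt11 are the ligands studied most, act through Frizzled on cell polarity without beta-catenin. Sfrp proteins carry a domain like that of Frizzled and bind Wnts outside the cell, and Dkk1 and Dkk2 bind Lrp5 and Lrp6. In the embryo, Wnts pattern the neural tube, and they also act in limb, face, tooth and skin development.

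Total counts ran from 17889968 to 110177889 per tumor, so that a count of 3, taken as the floor, stood for 0.0272 to 0.168 CPM (counts scaled to a total of 1000000). Smarcb1 itself was read at 3.99 to 58.1 TPM (length-scaled transcript abundance, also summing to 1000000) in the intra-CNS tumors and at 6.48 to 43.7 TPM in the others, and the difference was not called (log2 fold change -0.59 ± 0.63 SE, adjusted p = 0.48, edgeR). The gene-level values do not separate the floxed exon from the rest of the gene. A pair of tumors stood apart. R26P115 (intracranial extra-CNS) had 199516 TPM in Ttr, the transthyretin gene that marks choroid plexus, and 43.7 TPM of Smarcb1. 29048 (intra-CNS) had the highest Smarcb1, at 58.1 TPM, and its summed markers of oligodendrocytes reached 6791 TPM, against 42.7 to 176.6 TPM in the other tumors. It also had 4535 TPM of Ttr, which was at 3.36 TPM or less in the 14 tumors other than this pair.

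Of the 37 genes, 11 were higher and 8 lower in the 5 intra-CNS tumors than in the 11 tumors outside the CNS (edgeR, adjusted p under 0.05 and over 1 on the log2 scale), and 18 were not called. This is 51.4% of the genes, beside 26% of the 21854 genes tested in either direction, 12.9% higher and 13.1% lower. The median log2 fold change was -0.76 over the 37 genes (-0.99 without Wnt1 and Dkk4, neither of which had more than 3 counts in any tumor) and -0.15 over all genes tested. In 6 of the 37 genes, Wnt3, Wnt9b, Fzd1, Fzd3, Fzd9 and Fzd10, every intra-CNS tumor lay above every other tumor in normalised counts (11.2% of all genes were without overlap in one direction or the other), and in none did every intra-CNS tumor lie below. Of the 11 genes higher in intra-CNS tumors, 9 stayed called whichever single tumor was left out. Of the 8 lower ones, only Wnt2, Wnt11 and Dkk2 did, and the number of lower genes called dropped to between 3 and 4 when any single intra-CNS tumor was omitted. Over all genes, the lower calls also dropped in those fits, from 2860 to between 2283 and 2554, with 21627 to 21838 genes tested. In either direction, 35.1% to 40.5% of the 37 genes were called in those fits, beside 21.9% to 23.4% of all genes. Without both 29048 and R26P115, 13 genes were higher and 5 lower (48.6%, beside 27.1% of all genes). On log2(TPM + 1) with limma, 11 were higher and 1 lower (32.4%, beside 24.8% of all genes, a smaller gap than in edgeR), in a fit where 75.5% of all calls were higher, against 49.7% in edgeR, and where the median of all genes moved from -0.15 to 0.20.

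**Figure D1:**
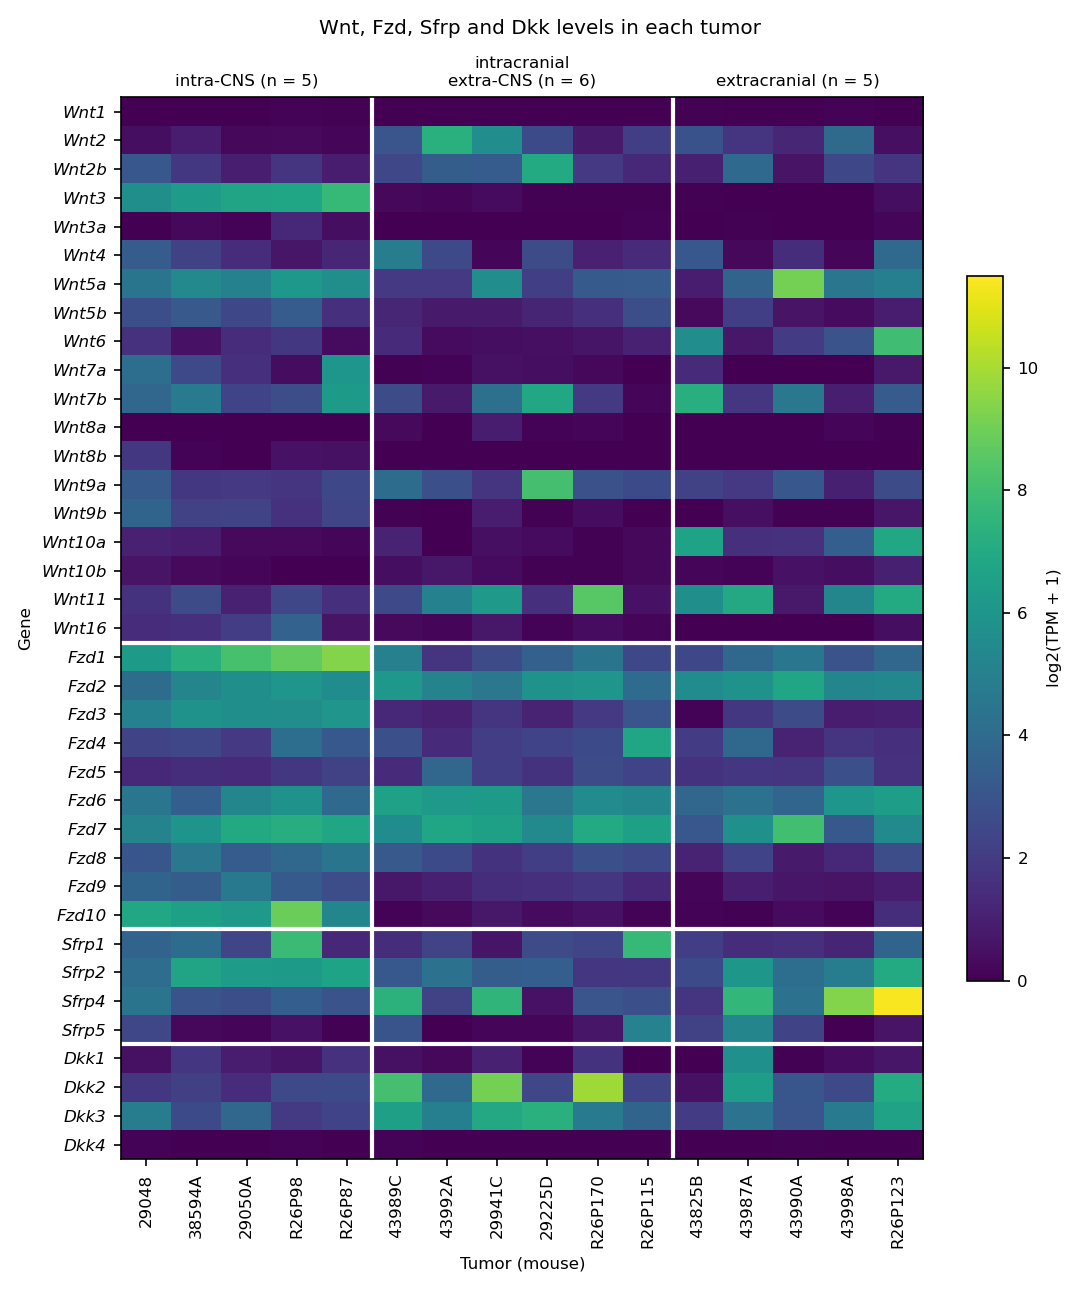
Level of the 37 genes (rows) in each of the 16 tumors (columns, by mouse), as log2(TPM + 1) in colour, with white lines between the 3 sites and the 4 families. Wnt3, Fzd1, Fzd3 and Fzd10 form blocks of high level in the intra-CNS tumors, while the highest values outside the CNS lie in single tumors, such as Sfrp4 at 2643 TPM in R26P123.

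**Figure D2:**
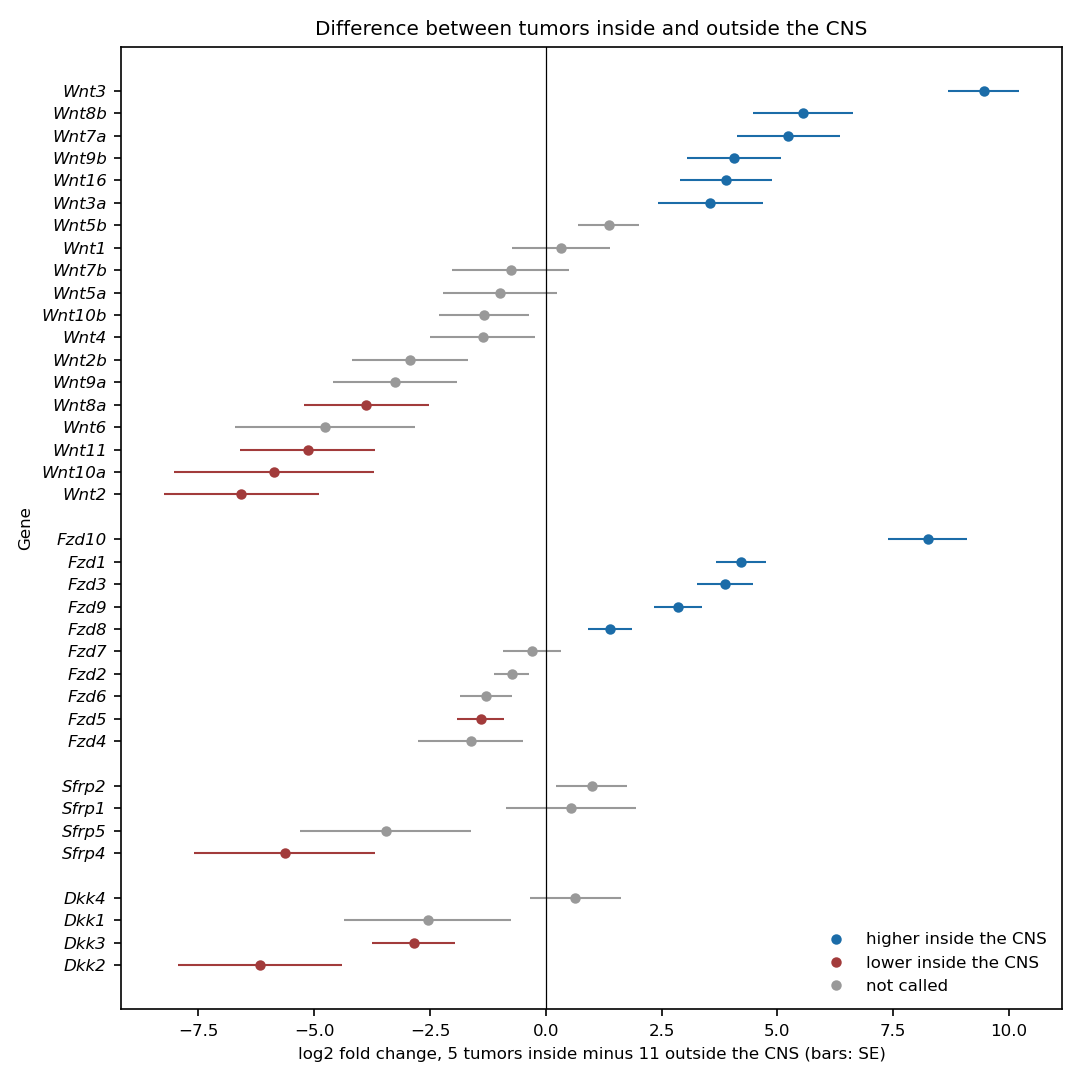
Log2 fold change of each gene between the 5 tumors inside and the 11 outside the CNS (points) with its SE (bars), from edgeR, ordered within each family. The 11 genes called higher include 5 of the 10 Frizzled genes, and the bars of the lower ones range from an SE of 0.51 for Fzd5 to 2.16 for Wnt10a.

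The ligand that set the intra-CNS tumors apart was Wnt3, which the early embryo needs to form its main axis. Wnt3 stood at 51.8, 79.0, 105.2, 112.5 and 207.8 TPM in the intra-CNS tumors of 29048, 38594A, 29050A, R26P98 and R26P87. Outside the CNS it ran from 0 to 0.365 TPM with a median of 0.0509, and its counts there were 16 in R26P123, 41 in 29941C and 5 or fewer in the other 9 tumors. The groups were far apart, and the difference was 9.45 ± 0.77 SE on the log2 scale (697-fold, adjusted p = 1.08e-06). Wnt9b, a ligand known from the kidney, lies next to Wnt3 on chromosome 11, and the 2 genes point away from each other with 24.3 kb between them (Wnt9b at chr11:103727364-103749821 and Wnt3 at chr11:103774150-103817957, mm10). It was read at 11.9, 3.67, 4.06, 2.08 and 4.33 TPM in the same 5 tumors and at 0 to 0.901 TPM outside. Wnt9b was thus also without overlap, at a lower level than Wnt3 in all 5 intra-CNS tumors, and differed by 4.06 ± 1.02 SE (adjusted p = 0.00628). Within the intra-CNS tumors the order differed, as Wnt9b was highest and Wnt3 lowest in 29048. The neighbours Wnt3a and Wnt9a, 16.2 kb apart on the same chromosome, had fold changes of opposite sign (3.55, called, and -3.26, not called). The bases just before the starts of Wnt3 and Wnt9b are shown because both neighbours were called higher. They come from RefSeq (GRCm38.p6), 5′ to 3′ on the strand of the gene, with CpG dinucleotides in capitals, and hold 20 CpG in 225 bases for Wnt3 (chr11:103773925-103774149, plus strand) and 22 in 250 bases for Wnt9b (chr11:103749822-103750071, minus strand), while the median over 250 bases before the start was 6 for all 32851 starts in that table and 23 for the 25 of the 37 genes found there, so that these counts do not set the pair apart from the other members.
Wnt3: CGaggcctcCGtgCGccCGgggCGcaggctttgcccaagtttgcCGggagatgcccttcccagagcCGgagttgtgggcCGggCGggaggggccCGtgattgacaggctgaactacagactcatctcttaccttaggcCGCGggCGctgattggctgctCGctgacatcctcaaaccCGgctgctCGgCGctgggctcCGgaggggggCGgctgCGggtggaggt
Wnt9b: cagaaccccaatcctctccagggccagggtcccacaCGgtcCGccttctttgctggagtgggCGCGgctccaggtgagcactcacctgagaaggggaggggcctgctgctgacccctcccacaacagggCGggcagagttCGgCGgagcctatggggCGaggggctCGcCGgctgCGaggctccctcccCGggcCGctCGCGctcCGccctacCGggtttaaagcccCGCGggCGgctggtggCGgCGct

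A further 4 ligands were higher inside the CNS, at lower levels. Wnt7a, a ligand of developing neurons and brain vessels, was read at 17.0, 4.76, 2.0, 0.315 and 64.0 TPM in 29048, 38594A, 29050A, R26P98 and R26P87 and at 0.0231 to 1.62 TPM outside, a difference of 5.23 ± 1.11 SE (adjusted p = 0.00196). R26P98 was the one intra-CNS tumor within the range of the others. Wnt16 ran from 0.531 to 11.2 TPM inside and from 0 to 0.661 TPM outside (3.89 ± 0.99 SE, adjusted p = 0.00675), with its highest value in R26P98. Wnt8b, a ligand of the embryonic forebrain, rested on few reads: 104 counts in 29048, 15 in R26P98, 13 in R26P87, 3 in 38594A and 0 in 29050A, against at most 4 counts outside (5.55 ± 1.08 SE, adjusted p = 0.001). Wnt3a, a ligand of the dorsal midline of the brain, had 37 counts in R26P98 and 1 to 9 in the other intra-CNS tumors, against 0 to 6 outside. It was called at 3.55 ± 1.13 SE (adjusted p = 0.0237), and without R26P98 the adjusted p was 0.167. In no intra-CNS tumor did any of these 4 ligands reach the level of Wnt3.

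Outside the CNS, the ligands that led were different ones and varied from tumor to tumor. Wnt11 was the highest Wnt in 4 of the 11 tumors outside the CNS. It was read at 4.76, 32.4, 72.9, 2.04, 365.2 and 0.457 TPM in the intracranial extra-CNS tumors of 43989C, 43992A, 29941C, 29225D, R26P170 and R26P115. In the extracranial tumors of 43825B, 43987A, 43990A, 43998A and R26P123 it was read at 51.9, 123.1, 0.71, 37.6 and 127.7 TPM, and in the intra-CNS tumors at 1.09 to 5.41 TPM. Of the 11 tumors outside the CNS, 7 lay above every intra-CNS tumor, and Wnt11 was lower inside by 5.14 on the log2 scale (log2 fold change -5.14 ± 1.46 SE, adjusted p = 0.013). The 250 bases before its start are shown because they hold the letters CTTTGAT, which Tcf and Lef factors are known to bind. The promoters of 25 of the 37 genes were found in RefSeq and were searched on both strands for CTTTGAT or CTTTGAA, which differ in the last letter. Only those of Wnt11 (CTTTGAT) and Dkk1 (CTTTGAA) held a match, 8.0% of the 25, beside 7.48% of all promoters of the same length. The stretch before Wnt11 (chr7:98834862-98835111, plus strand, GRCm38.p6) is written with the match in capitals, which reads as its complement on this strand and begins 51 bases before the start of the gene.
Wnt11: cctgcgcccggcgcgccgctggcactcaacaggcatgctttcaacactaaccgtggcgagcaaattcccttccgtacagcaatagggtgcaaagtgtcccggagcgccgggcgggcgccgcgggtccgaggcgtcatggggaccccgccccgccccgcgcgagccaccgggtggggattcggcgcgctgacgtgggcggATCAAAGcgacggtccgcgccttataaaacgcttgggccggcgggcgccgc

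Wnt2, a ligand of lung and vessel development, was read at 0.105 to 0.876 TPM in the intra-CNS tumors. Outside the CNS it reached 156.7 TPM in 43992A, 49.1 in 29941C and 14.7 in 43998A, with a median of 5.0 TPM and a lowest value of 0.403 TPM in R26P123. Only R26P170, at 0.788 TPM, and R26P123 lay within the intra-CNS range, and Wnt2 was called lower inside (-6.57 ± 1.67 SE, adjusted p = 0.00654). Wnt10a, a ligand of tooth and skin, was read at 99.6 TPM in 43825B, 115.8 in R26P123 and 9.96 in 43998A, and at 0 to 2.08 TPM in all others outside the CNS, against 0.113 to 1.08 TPM inside (-5.87 ± 2.16 SE, adjusted p = 0.0467). Against the 6 intracranial extra-CNS tumors alone the log2 fold change of Wnt10a was 0.05, and against the 5 extracranial tumors alone it was -6.98. Its call was lost without any one of the 5 intra-CNS tumors or of 43825B, 43998A and R26P123 (adjusted p of 0.0536 to 0.098). DESeq2 did not call Wnt10a (adjusted p = 0.0731). Wnt6 lies 6.2 kb from Wnt10a on chromosome 1, on the same strand, and was high in the same tumors, at 48.4 TPM in 43825B, 248.9 in R26P123 and 6.69 in 43998A. Wnt6 was not called by edgeR (-4.77 ± 1.94 SE, adjusted p = 0.069) but was called lower by DESeq2 (-2.56 ± 1.08 SE, adjusted p = 0.0384). An antisense gene overlaps Wnt6. Wnt8a was at or under the floor in all 5 intra-CNS tumors, with 1 count at most, and had 63 counts in 29941C and 3 or fewer in the other 10 tumors. With counts pooled by group, and 3 counts taken for the 5 intra-CNS tumors together, it was 10.5-fold lower inside, and 2.4-fold lower without 29941C. The floor of 3 counts in each tumor would give a smaller fold, and pooling leaves out the spread between tumors. Its call (adjusted p = 0.0362) was lost without 29941C or without any one intra-CNS tumor (adjusted p of 0.0594 to 0.0811).

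The other 9 ligands, Wnt6 among them, were not called by edgeR, and several of them were very high in 1 tumor. Wnt5a was high throughout the intra-CNS tumors, at 20.9, 41.5, 32.2, 69.2 and 49.8 TPM in 29048, 38594A, 29050A, R26P98 and R26P87, and ran from 0.831 to 48.7 TPM in 10 of the tumors outside the CNS. The nose tumor 43990A had 538.3 TPM of Wnt5a, 92.8% of its summed Wnt level. The log2 fold change of Wnt5a was -0.99 ± 1.23 SE with this tumor (adjusted p = 0.545) and 1.09 ± 0.70 SE without it (adjusted p = 0.235) in edgeR, and with all 16 tumors it was 1.08 in DESeq2 and 1.59 in limma, so that its direction turned with this tumor and with the tool. Genes on the opposite strand also overlap Wnt5a, Wnt7b, Wnt5b, Wnt11, Fzd3, Fzd5 and Fzd6 in the annotation, among them an antisense gene for Wnt5a and for Wnt7b, and their reads may be shared. Wnt9a and Wnt2b were highest in 29225D, at 271.2 and 130.6 TPM, against at most 15.8 and 14.1 TPM in any other tumor. Wnt7b reached 148.0 TPM in 43825B, 118.5 in 29225D and 77.0 in the intra-CNS tumor R26P87, and was as low as 0.124 TPM in R26P115. Wnt9a had a log2 fold change of -3.26 ± 1.34 SE (adjusted p = 0.0719) and Wnt2b of -2.94 ± 1.25 SE (adjusted p = 0.082). Wnt4 (0.135 to 27.9 TPM over all tumors), Wnt5b (0.237 to 9.23) and Wnt10b (0 to 1.02) completed the group, with Wnt1, which was at or under the floor of 3 counts in every tumor.

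Of the 10 Frizzled genes, 5 were higher and 1 lower inside the CNS (60%, beside 26% of all genes, 12.9% higher and 13.1% lower). The median log2 fold change was 0.54 over the Fzd genes, beside -0.15 over all genes. Fzd10 was read at 118.6, 92.8, 73.3, 476.7 and 38.1 TPM in 29048, 38594A, 29050A, R26P98 and R26P87. Outside the CNS it ran from 0.0449 to 0.689 TPM in 10 tumors and reached 1.83 TPM in R26P123. The difference was 8.24 ± 0.85 SE (302-fold, adjusted p = 7.69e-06), the largest of the Frizzled genes. Fzd1, which reached the highest level of any receptor, stood at 76.1, 153.9, 285.8, 429.2 and 651.4 TPM in the same tumors and at 2.35 to 30.9 TPM outside, with a median of 10.7 (4.21 ± 0.54 SE, adjusted p = 4.09e-05). Fzd1 was thus present in every tumor and higher inside without overlap. Fzd3, a receptor needed for axon tracts and linked to cell polarity, was the most even of them, at 32.3, 57.4, 51.9, 51.0 and 62.5 TPM inside and 0.0741 to 7.22 TPM outside (3.87 ± 0.61 SE, adjusted p = 0.000206). Its highest value outside was in R26P115. Fzd9 was read at 12.0, 9.54, 23.9, 8.56 and 5.56 TPM inside and 0.0994 to 2.52 TPM outside (2.85 ± 0.52 SE, adjusted p = 0.000649). Fzd8 ran from 7.56 to 22.3 TPM inside and from 0.785 to 8.23 TPM outside, and only 29048 overlapped the highest of the others (1.38 ± 0.48 SE, adjusted p = 0.0355). Its call was lost without 38594A, 29941C, 29225D, R26P98 or R26P87 (adjusted p of 0.0522 to 0.106).

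The other Frizzled genes were shared by both groups. Fzd2 was read at 15.5 to 63.5 TPM inside and 15.4 to 110.6 TPM outside, with medians of 46.8 and 47.2 TPM (-0.74 ± 0.38 SE, adjusted p = 0.143). Fzd7 ran from 34 to 144.0 TPM inside and from 7.81 to 260.7 TPM outside (-0.30 ± 0.63 SE, adjusted p = 0.737), with its highest value in 43990A and its lowest in 43825B and 43998A. Fzd6 was read at 9.69 to 59.2 TPM inside and 12.6 to 93.4 TPM outside (-1.30 ± 0.56 SE, adjusted p = 0.0851). DESeq2 called Fzd6 lower (-1.29 ± 0.54 SE, adjusted p = 0.0374). Fzd4, the receptor for norrin in vessels, was at 1.13 to 16.7 TPM in 15 tumors and at 110.0 TPM in R26P115, the tumor with the choroid plexus gene Ttr. Its log2 fold change was -1.62 ± 1.13 SE with R26P115 and 0.25 without it, and it was not called either way. Fzd5 was low everywhere, at 1.47 to 3.68 TPM inside and 1.70 to 12.8 TPM outside, and its call as lower (-1.41 ± 0.51 SE, adjusted p = 0.0435) was lost without 29048, 38594A, 29050A, R26P98, 43998A or R26P170 (adjusted p of 0.0599 to 0.0984).

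**Figure D3:**
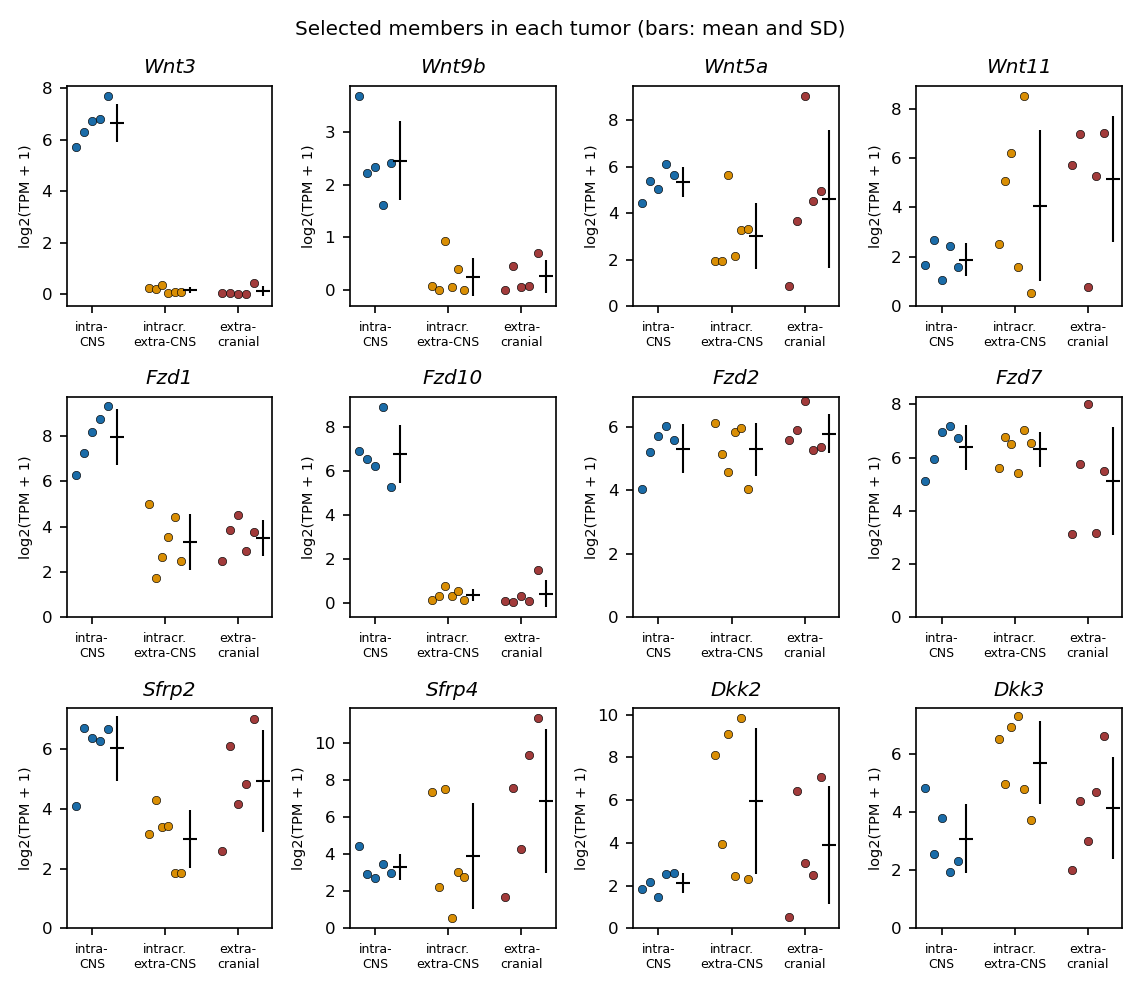
Level of 12 of the genes in each tumor (points, log2(TPM + 1)) by site, with the mean and SD of each site beside the points. Wnt3, Wnt9b, Fzd1 and Fzd10 are without overlap between the intra-CNS tumors and both other sites, Fzd2 and Fzd7 overlap throughout, and Wnt11, Sfrp4 and Dkk2 spread widely outside the CNS.

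Among the secreted inhibitors, edgeR called none of the 8 Sfrp and Dkk genes higher inside the CNS, and called Sfrp4, Dkk2 and Dkk3 lower. Of all genes, 12.9% were higher and 13.1% lower, so that few calls among 8 genes are near that share. Other fits did call members higher: Sfrp2 with limma (2.14 ± 0.77 SE, adjusted p = 0.0351) and for tumors induced at E6 alone, and Sfrp1 without R26P115. The median log2 fold change was -1.46 over the 4 Sfrp genes and -2.70 over the 4 Dkk genes (-2.85 without Dkk4, which was at or under the floor throughout). Dkk2 was read at 2.61, 3.56, 1.76, 4.88 and 5.05 TPM in 29048, 38594A, 29050A, R26P98 and R26P87. In 43989C, 43992A, 29941C, 29225D, R26P170 and R26P115 it was read at 275.5, 14.4, 538.8, 4.47, 919.8 and 4.01 TPM, and in 43825B, 43987A, 43990A, 43998A and R26P123 at 0.424, 85.9, 7.31, 4.73 and 133.3 TPM. Of the 11 tumors outside, 7 lay above every intra-CNS tumor and 4 did not (-6.17 ± 1.77 SE, adjusted p = 0.0138). Dkk3, which lacks the known action of Dkk1 and Dkk2 on Lrp6, ran from 2.84 to 27.5 TPM inside, with the top value in 29048, and from 3.01 to 158.6 TPM outside (-2.85 ± 0.90 SE, adjusted p = 0.023). Its call was lost without 38594A, R26P98 or R26P87 (adjusted p of 0.056 to 0.0597). Dkk1, itself a beta-catenin target, was at 53.0 TPM in the jaw tumor 43987A and at 2.49 TPM or less in all others (-2.55 ± 1.80 SE, adjusted p = 0.283), and Dkk4 never rose above the floor of 3 counts.

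Sfrp4 reached the highest level of any of the 37 genes. It was read at 5.70 to 20.7 TPM inside, and at 2643 TPM in R26P123, 662.7 in 43998A, 193.7 in 43987A, 185.0 in 29941C and 164.3 in 43989C. The other 6 tumors outside the CNS had 0.477 to 18.6 TPM, within or below the intra-CNS range, and its call (-5.64 ± 1.95 SE, adjusted p = 0.0348) was lost without any one intra-CNS tumor (adjusted p of 0.0558 to 0.0775). Against the 2 tumors outside the CNS induced at E6 alone, the log2 fold change of Sfrp4 turned to 0.51. Sfrp2 was high in 4 of the 5 intra-CNS tumors, at 75.2 to 104.2 TPM, with 16.2 TPM in 29048, and ran from 2.58 to 127.7 TPM outside. It was not called (0.99 ± 0.77 SE, adjusted p = 0.329), but was higher than in the 6 intracranial extra-CNS tumors taken alone (2.60 ± 0.58 SE, adjusted p = 0.00714). An antisense gene overlaps Sfrp2. Sfrp1 stood at 227.1 TPM in the intra-CNS tumor R26P98 and at 209.2 TPM in R26P115, and at 0.561 to 15.6 TPM in the other 14 tumors (0.54 ± 1.40 SE, adjusted p = 0.785). Sfrp5 reached 36.1 TPM in 43987A and 32.8 TPM in R26P115 and 6.96 TPM or less elsewhere (-3.46 ± 1.85 SE, adjusted p = 0.156). DESeq2 called Sfrp5 lower (-3.40 ± 1.44 SE, adjusted p = 0.0391). R26P115 was thus the highest tumor outside the CNS in Fzd4 and Sfrp1, at 110.0 and 209.2 TPM.

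Each tumor's own mixture was then described by the share of the summed TPM of a family that each gene held, with no test. Wnt3 held the largest share of Wnt TPM in all 5 intra-CNS tumors, at 33.1% in 29048, 43.6% in 38594A, 64.1% in 29050A, 50% in both R26P98 and R26P87, a mean of 48.2% ± 11.3 (SD, n = 5). Wnt5a came next in the mean, at 19.7% ± 7.62 (SD, n = 5). Outside the CNS, 7 different ligands led: Wnt11 in 4 tumors, Wnt5a in 2, and Wnt2, Wnt4, Wnt6, Wnt7b and Wnt9a in 1 each. A single ligand held 93.4% of Wnt TPM in R26P170 (Wnt11), 92.8% in 43990A (Wnt5a), 75.3% in 43987A (Wnt11) and 72.9% in 43992A (Wnt2). The summed Wnt level itself ran from 156.4 to 415.7 TPM inside and from 28.6 TPM in R26P115 to 580.1 TPM in 43990A outside, and the groups overlapped. For the receptors, Fzd1 led in 3 and Fzd10 in 2 intra-CNS tumors, and Fzd1 held a mean of 40.6% ± 16.8 (SD, n = 5). In the intracranial extra-CNS tumors Fzd7 led in 3 of 6, at a mean of 36.1% ± 11.2 (SD, n = 6), and in the extracranial tumors Fzd2 and Fzd6 led in 2 each and Fzd7 in 1. The summed Fzd level was 323.6 to 1265 TPM inside and 79.1 to 416.0 TPM outside, and only 29048 lay below the highest tumor outside. Among Sfrp genes, Sfrp4 led in 7 of the 11 tumors outside and Sfrp2 in 3 of the 5 inside. The summed Dkk level was 8.39 to 30.6 TPM inside and 3.43 to 948.8 TPM outside.

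**Figure D4:**
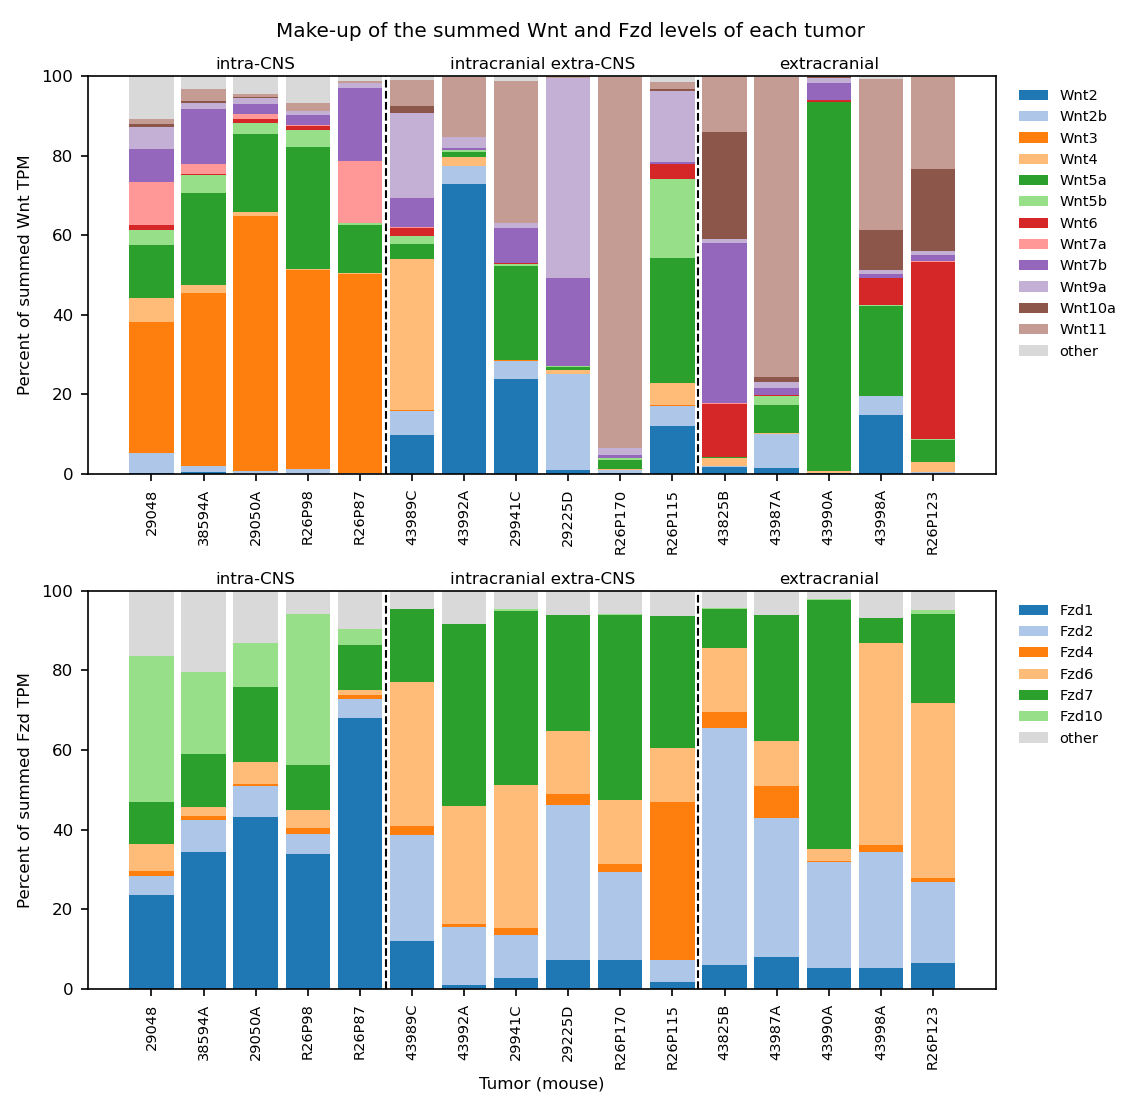
Share of each gene in the summed Wnt TPM (top) and summed Fzd TPM (bottom) of each tumor, in percent, with genes under 15% in every tumor drawn together as other. Wnt3 leads in every intra-CNS tumor and is nearly absent elsewhere, and Fzd1 with Fzd10 takes the place that Fzd2, Fzd6 and Fzd7 hold outside the CNS.

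Whether the 6 intracranial and 5 extracranial tumors outside the CNS differed in these genes was tested in a fit of those 11 tumors alone. None of the 37 genes was called by edgeR (1 of 21261 genes was, 0.0047%), and 8 had an unadjusted p under 0.05. With DESeq2, which called 490 genes in all, 3 of the 37 were called, Wnt6, Wnt10a and Sfrp2, and with limma none was, with 4 under 0.05 before adjustment. Wnt10a was read at 99.6, 1.89, 2.08, 9.96 and 115.8 TPM in 43825B, 43987A, 43990A, 43998A and R26P123, and at 0 to 1.18 TPM in the 6 intracranial tumors, so that the sites did not overlap in TPM. The difference was -7.06 ± 1.44 SE, with an adjusted p of 0.345 in edgeR and of 2.55e-06 in DESeq2. Wnt6 ran from 0.693 to 248.9 TPM in the extracranial and from 0.276 to 1.58 TPM in the intracranial tumors, and overlapped (-6.38 ± 1.40 SE, adjusted p = 0.345 in edgeR and 9.84e-06 in DESeq2). Sfrp2 was read at 5.03 to 127.7 TPM in the extracranial and 2.58 to 18.6 TPM in the intracranial tumors (-2.48 ± 0.76 SE, adjusted p = 0.346 in edgeR and 0.042 in DESeq2). Over its alternatives in edgeR and limma, no gene of the 37 was called by site. Wnt6 and Wnt10a were high in 43825B and R26P123, in which summed epithelial markers were 1667 and 948.9 TPM, beside 58.3 TPM in 43998A and 12.0 and 13.9 TPM in the other extracranial tumors. The intracranial tumors 29225D and 43992A had more of these markers, 3311 and 2097 TPM, and 0.261 and 0 TPM of Wnt10a.

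Of the 71 other genes of the Wnt pathway, 22 were higher and 3 lower inside the CNS (35.2%, beside 26% of all genes), with a median log2 fold change of 0.45. Of the co-receptors and receptors outside the Frizzled family, 0 of 6 were called by edgeR, DESeq2 or limma, and 1, Lrp5, had an unadjusted p under 0.05 in edgeR (log2 fold change -0.89 ± 0.38 SE, adjusted p = 0.08). Of a list of 4 genes that act on the Wnt proteins themselves (Porcn, Wls, Notum and Wif1), 2 were higher. Porcn adds the lipid to Wnt proteins (2.13 ± 0.41 SE, adjusted p = 0.000915), while Wif1 is a secreted inhibitor that binds Wnts (2.69 ± 0.85 SE, adjusted p = 0.0223). Of the R-spondins and the genes of Frizzled turnover, 2 of 9 were higher and 1 lower. Of the other inhibitors, 3 of 9 were higher and 1 lower. Of the cytoplasmic transducers 5 of 14, of the nuclear effectors 3 of 12 and of the planar cell polarity genes 6 of 10 were higher, with none lower. The 6 polarity genes were Vangl2, Celsr1, Celsr2, Celsr3, Prickle2 and Daam2, and the median of that list was 2.75.

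The largest rises among these genes were in Draxin, a secreted guidance factor that binds Lrp6 (19.4 to 584.5 TPM inside, 0.141 to 5.03 TPM outside, 6.31 ± 1.07 SE, adjusted p = 0.000344), Celsr3, a cadherin of the polarity pathway (10.1 to 47.9 against 0.0999 to 1.22 TPM, 4.92 ± 0.49 SE, adjusted p = 6.49e-06), and Apcdd1, a membrane inhibitor of Wnt (48.9 to 376.0 against 0.411 to 25.6 TPM, 4.91 ± 0.81 SE, adjusted p = 0.000303). The level of Draxin inside was highest in R26P87, at 584.5 TPM, and 19.4 to 40.2 TPM in the other 4 tumors, and without R26P87 its log2 fold change was 3.95, below the 5.02 of Celsr3 and the 4.60 of Apcdd1 in that fit. Draxin stayed called whichever single tumor was left out, and DESeq2 gave it no adjusted p. The lower genes were Cdx1, a homeobox gene (0 to 0.0446 against 0 to 2.56 TPM, -4.72 ± 1.72 SE, adjusted p = 0.0443), Rspo1, an R-spondin that amplifies Wnt signals (0.302 to 7.41 against 0.172 to 253.2 TPM, -4.45 ± 1.53 SE, adjusted p = 0.0344), and Tpbg (4.05 to 6.96 against 0.62 to 126.9 TPM, -3.29 ± 1.05 SE, adjusted p = 0.0239). In the intra-CNS tumors Cdx1 was at or under the floor, with 2 counts at most. With counts pooled by group, and 3 counts taken for all intra-CNS tumors together, Cdx1 was 13.6-fold lower there (5.27-fold without R26P123). The floor of 3 counts in each tumor would give a smaller fold, and pooling leaves out the spread between tumors. All 3 lower calls were lost without 38594A, 29050A or R26P98. That of Rspo1 was also lost without R26P87 or 43990A (adjusted p of 0.0501 to 0.079 in these fits), and that of Cdx1 without any 1 of 9 tumors (adjusted p of 0.0526 to 0.0938). Of the 14 feedback targets of beta-catenin, some of which are in the other lists too, 3 were higher and 1 lower in edgeR (28.6%, near the 26% of all genes). The median log2 fold change of that list was 1.23. Limma called Axin2, Nkd1, Nkd2, Tcf7, Sp5, Rnf43, Znrf3, Apcdd1 and Tnfrsf19 higher, in a fit that called 24.8% of all genes and where 75.5% of all calls were higher. For tumors induced at E6 alone, edgeR called Axin2, Nkd1, Lef1, Rnf43, Znrf3, Apcdd1 and Tnfrsf19 higher, beside 16.9% of all genes in either direction. Axin2, the target read most often as a sign of the pathway, stood at 65.5, 79.9, 114.0, 137.4 and 186.9 TPM in 29048, 38594A, 29050A, R26P98 and R26P87. Outside the CNS it was read at 0.376 to 25.4 TPM in 10 tumors and at 132.2 TPM in 43990A. With this tumor Axin2 was not called (2.16 ± 1.03 SE, adjusted p = 0.115), and without it Axin2 was called (3.45 ± 0.83 SE, adjusted p = 0.00485). Nkd1, a feedback inhibitor that binds Dishevelled, showed the same 2 levels outside, with 28.2 TPM in 43990A and 0.0332 to 1.14 TPM in the other 10, against 30.3 to 140.4 TPM inside (3.93 ± 1.17 SE, adjusted p = 0.0165). 43990A was thus the highest tumor outside the CNS in Wnt5a, Fzd2, Fzd7, Rspo1, Axin2, Nkd1 and Apcdd1. Lef1 did not separate the groups, at 11.2 to 41.9 TPM inside and 0.366 to 26.7 TPM outside (0.35 ± 0.66 SE, adjusted p = 0.699). For tumors induced at E6 alone, edgeR called Lef1 higher (3.61 ± 0.99 SE, adjusted p = 0.0435).

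**Figure D5:**
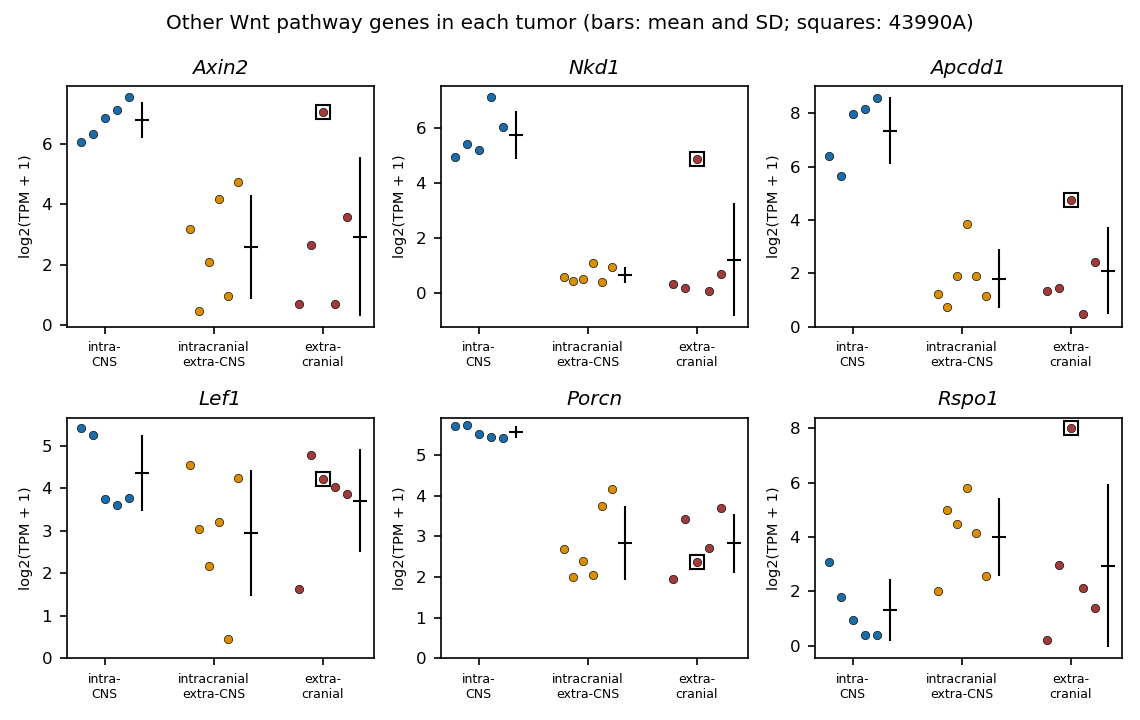
Level of 6 other Wnt pathway genes in each tumor (points, log2(TPM + 1)) by site, with the mean and SD of each site and a square around the nose tumor 43990A. In 43990A, Axin2 (132.2 TPM) and Lef1 (17.6 TPM) lie within the range of the intra-CNS tumors, Nkd1 (28.2 TPM) just below it and Porcn (4.2 TPM) far below it. For Lef1 this is not particular to 43990A, as the median outside the CNS (13.7 TPM) also lies within the intra-CNS range (11.2 to 41.9 TPM).

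Cell types other than tumor cells can carry these genes, and in bulk tissue fewer cells of a type cannot be told apart from less RNA per cell. Summed markers of macrophages (8 genes, all called lower inside) were 674.5 to 1081 TPM inside and 725.1 to 8462 TPM outside, and those of fibroblasts and meninges (7 genes, 6 lower) were 110.3 to 652.8 TPM inside and 549.4 to 7810 TPM outside. Wnt2, Wnt11, Sfrp4 and Dkk2 were also lower inside, but tumor by tumor they did not follow these sums throughout. The highest fibroblast sums of the intracranial extra-CNS and the extracranial tumors were in 29225D (7810 TPM) and 43825B (7209 TPM). In these tumors Sfrp4 was at 0.477 and 2.27 TPM and Dkk2 at 4.47 and 0.424 TPM. Wnt11 was at 2.04 and 51.9 TPM there, and Wnt2 at 5.0 and 6.35 TPM. Neuron markers (10 genes, 5 higher) were 160.6 to 4684 TPM inside and 36.4 to 1407 TPM outside, and oligodendrocyte markers (8 genes, 6 higher) were 47.5 to 6791 TPM and 42.7 to 138.8 TPM, with both top values in 29048. Astrocyte markers (6 genes, 2 higher) were 102.4 to 1810 TPM inside and 2.11 to 234.2 TPM outside, and skeletal muscle markers (7 genes, 4 lower) were 0.989 to 4.66 TPM inside and 2.4 to 660.3 TPM outside. Choroid plexus markers (6 genes, 0 called by edgeR, with 0 under an unadjusted p of 0.05, and 1, Otx2, called higher by limma, while DESeq2 called 0 and gave 5 no adjusted p) were 119.8 to 4749 TPM inside, 205233 TPM in R26P115 and 0.314 to 9.73 TPM in the other 10 tumors outside. Outside 29048, most of the sum inside was Otx2 (112.7 to 340.6 TPM), a homeobox gene also used in early brain development. The part of these cells in the results was not tested. Without 29048, the log2 fold change was 9.63 for Wnt3, 8.33 for Fzd10, 4.46 for Fzd1, 3.99 for Fzd3 and 2.85 for Fzd9, and each stayed called.

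The tumors carry names of 2 kinds, a number or R26P, and no other batch was given. Within the 11 numbered mice (3 against 8 tumors), 9 of the 37 genes were higher and 2 lower inside the CNS, which is 29.7%, near the 25.7% of all genes called in that fit. Within the 5 R26P mice (2 against 3) none was called, as was no gene of the whole table. The log2 fold changes in numbered and R26P mice were 9.12 and 9.39 for Wnt3, 8.15 and 7.83 for Fzd10, 3.26 and 4.88 for Fzd1, 4.09 and 3.28 for Fzd3, and -6.06 and -6.67 for Dkk2. All intra-CNS tumors were induced at E6, and against the 2 tumors outside the CNS induced on that day, Wnt3, Fzd1, Fzd3, Fzd10 and Sfrp2 were higher, and Wnt2, Wnt6, Wnt10a, Wnt11 and Dkk2 were lower (27%, beside 16.9% of all genes in that fit). Those 2 tumors are R26P170 and 43825B, and of the lower genes only Wnt11 was above every intra-CNS tumor in both. Dkk2 was high in R26P170 alone (919.8 TPM, against 0.424 in 43825B). Wnt2, Wnt6 and Wnt10a were above the intra-CNS range in 43825B alone, at 6.35, 48.4 and 99.6 TPM, against 0.788, 0.575 and 0.0405 TPM in R26P170.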

How the data were processed

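The authors sequenced polyadenylated RNA from 16 tumors, each from a different mouse, as stranded 100 bp paired-end libraries, aligned reads to the mm10 genome, and made counts for each gene. STAR 2.5.3a, Trim Galore, FastQC and Picard stand in the submitters' processing notes. The deposited counts are whole numbers with no normalization, and the deposited TPM values sum to 1000000 per tumor. Whether counting used strand is not given in the sources used here, so reads of overlapping antisense genes may be shared. The 37 genes and all lists were chosen with earlier results of these data known. All 37 genes are described. Of 71 other pathway genes, those named are the 3 highest and 3 lowest log2 fold changes called, Axin2 and Lef1, with Smarcb1. Porcn, Nkd1, Wif1, Lrp5, Ttr and the polarity genes were named after their values were seen.

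Tumors inside the CNS (5) were compared with the others (11), and intracranial (6) with extracranial (5) tumors in a separate fit, by edgeR 4.0.16 (TMM, glmQLFit, glmQLFTest) in R 4.3.3 over every gene with a count. Genes were called at an adjusted p (Benjamini-Hochberg) under 0.05 with a log2 fold change beyond 1 in either direction, and the code was tested on simulated data. Replicates are separate mice. Alternatives were DESeq2 1.42.0, limma 3.58.1 on log2(TPM + 1), other size factors, no fold threshold, edgeR's low-count filter, the mouse naming scheme as a covariate, subsets of tumors and omission of each tumor. Total counts ran from 17889968 to 110177889, and the floor of 3 counts covers counting error only. Positions came from GENCODE M21 and promoters from RefSeq, and tables were handled in Python 3.11.15 with pandas 2.3.3.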

Additional observations from a re-analysis of the deposited data

Results flagged for a closer look

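In each group of 5 or 6 tumors, the highest and the lowest log2(TPM + 1) of each of the 37 genes was set against the spread of the rest, and 21 of 111 groups held a tumor far from the others. Chance marks about 1 in 20 groups where values vary continuously. In 7 of the 21 every other tumor of the group was at 0 TPM, so that any count marks the tumor and that rate does not apply (Wnt1, Wnt3a in R26P115, Wnt8a in 29050A, Wnt8b, Wnt16 and Dkk4 at both sites). In 5 of the 21 the tumor was R26P123, a jaw tumor, and it was the highest extracranial tumor in genes that were high inside the CNS: Wnt3 (log2 value 0.45, 0.365 TPM), Fzd10 (1.5, 1.83 TPM), Wnt16 (0.42, 0.341 TPM), Wnt3a (0.21, 0.155 TPM) and Wnt8b (0.03, 1 count, under the floor of 3 counts). For Wnt3, Fzd10 and Wnt16 it still lay below every intra-CNS tumor. Among the intracranial extra-CNS tumors, 29225D stood apart in Wnt9a (log2 value 8.09, 271.2 TPM) and Wnt2b (7.04, 130.6 TPM). R26P115 stood apart in Sfrp1 (7.72, 209.2 TPM) and Fzd4 (6.79, 110.0 TPM), beside its 199516 TPM of Ttr, and in Wnt3a (0.09, 2 counts). 29941C stood apart in Wnt5a (5.64, 48.7 TPM), Wnt8a (0.90, 0.862 TPM) and Wnt1 (0.01), and 43989C in Dkk4 (0.13), the last 2 at or under the floor of 3 counts.

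Among the extracranial tumors, 43987A stood apart in Dkk1 (log2 value 5.75, 53.0 TPM), 43998A in Fzd5 (2.81, 6.0 TPM) and 43990A in Wnt11, where it was the lowest (0.77, 0.71 TPM, against 37.6 to 127.7 TPM in the others), and in Dkk4 (0.08, at or under the floor). Among the intra-CNS tumors, 29048 was the lowest in Sfrp2 (4.11, 16.2 TPM, against 75.2 to 104.2 TPM in the others) and the highest in Sfrp5 (2.46, 4.52 TPM), and 29050A was the highest in Wnt8a (0.04, 1 count). What sets these tumors apart was not tested.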

How the results depend on the processing

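The 11 higher calls stayed between 9 and 13 except for tumors induced at E6 alone (5) and R26P mice alone (0). The 8 lower calls became 10 with DESeq2, which added Wnt6, Fzd6 and Sfrp5 and did not call Wnt10a. They became 9 against intracranial extra-CNS tumors alone and 6 against extracranial tumors alone. They became 1 with limma, 5 at E6 alone, 2 within numbered mice, 0 within R26P mice, 5 without 29048 and R26P115, and 3 to 8 on leaving out single tumors (3 without 38594A and 4 without any other intra-CNS tumor). By site, DESeq2 called 3 genes and edgeR 0. Of other pathway genes, the 22 higher calls became 0 in R26P mice, and the 3 lower became 5 with no fold threshold, 0 with limma, at E6 alone and in R26P mice, and 0 to 4 on leaving out single tumors (0 without 38594A, 29050A or R26P98). The fits within a name scheme and without both 29048 and R26P115 were chosen after the data were seen.

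Signs turned, as log2 fold changes, in genes that were not called, and in Sfrp4 (0.51 at E6 alone) and Wnt10a (0.05 against intracranial tumors alone). At E6 alone, values were -0.09 (Wnt1), 0.03 (Wnt2b), 2.63 (Wnt5a), 0.47 (Wnt10b) and 0.25 (Fzd4). With limma they were 1.59 (Wnt5a), 0.80 (Wnt7b), 0.22 (Fzd4), 0.62 (Fzd7) and 0.14 (Dkk1), and with DESeq2 1.08 (Wnt5a), 0.30 (Fzd4) and 0.85 (Dkk1). Against intracranial tumors alone they were 1.25 (Wnt5a), 0.47 (Wnt6), -0.23 (Sfrp1) and 0.42 (Dkk1), and against extracranial tumors alone -0.62 (Wnt1) and 0.17 (Fzd4). In R26P mice they were 1.37 (Wnt5a), 2.86 (Wnt7b), -0.10 (Sfrp1) and -0.47 (Lef1), and in numbered mice -1.64 (Wnt1), -0.09 (Dkk4) and 0.14 (Smarcb1). Wnt7b was 0.08 with the scheme as covariate. On leaving out single tumors, values ran from -0.49 (without R26P98) to 1.14 for Wnt1, from -1.24 to 1.09 (without 43990A) for Wnt5a, from -1.83 to 0.01 (without 43825B) for Wnt7b, from -2.22 to 0.25 (without R26P115) for Fzd4, from -0.51 to 0.04 (without 43990A) for Fzd7, from -2.15 (without R26P98) to 3.36 for Sfrp1, and from -2.92 to 0.84 (without 43987A) for Dkk1. Fzd4 was 0.40 without both 29048 and R26P115. The cause was not tested. No paired analysis was possible because no mouse gave more than 1 tumor, and replicate numbers only name the tumors. Wnt1, Wnt3a, Wnt8a, Wnt8b and Dkk4 are limited by depth.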
